A study of Homo sapiens with 12 samples.

Results

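XY018 is a small-molecule antagonist of a nuclear receptor, and the comparison described here is the step from 1.25 to 2.5 µM XY018 in MDA-MB468 cells. MDA-MB468 is a human triple-negative breast cancer (TNBC) cell line, that is, one low in estrogen receptor, progesterone receptor and HER2, with high EGFR. Of 18217 genes in the expression table of this line, the comparison took the 11775 whose FPKM (fragments per kilobase of transcript, scaled to the mapped fragments of the library) reached 1 at either dose. The series holds 12 samples, and 3 of them carry this comparison. They are MDA-MB468 cells given vehicle, 1.25 µM XY018 or 2.5 µM XY018 for 24 h. Cells given 1.25 µM of the statin atorvastatin (ATV), alone or together with 1.25 µM XY018, and HCC70 cells, another TNBC line, given the same XY018 doses, serve as context. All were grown with 10% fetal bovine serum at passage 6-9, the MDA-MB468 cultures with added insulin, and each condition is 1 library. The study's methods name DMEM for MDA-MB468 and list insulin for other lines only, so the insulin is uncertain. They name RPMI medium for HCC70, so the lines also differ in medium. No test between doses was therefore possible, and differences between doses cannot be told apart from differences between single cultures. Every ratio below is a log2 ratio after adding 0.1 FPKM, and a gene was counted as higher or lower when the ratio passed 1.5-fold.

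Nuclear receptors are transcription factors that bind small lipophilic ligands, and an antagonist lowers the transcription of the genes that its receptor activates. The study asked how such an antagonist acts on cholesterol synthesis in TNBC cells, a pathway whose genes are otherwise set by the factor SREBP2 according to the sterol level of the cell. A dose series separates responses that are largely present at the lower dose from those with more of their change still to come. The vehicle library was therefore used as the baseline for sorting each response into graded and saturated.

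The libraries matched their labels in the markers examined. EGFR was at 944 FPKM in vehicle, 784 at 1.25 µM and 638 at 2.5 µM, ESR1 stayed between 0.43 and 0.67 FPKM in the 5 MDA-MB468 libraries, and PGR was listed at 0 in all of them. ERBB2 was at 25.6 to 35.4 FPKM. Of 15 markers of fibroblasts, leukocytes and endothelium, 4 reached 1 FPKM in any of the 5 libraries, namely COL1A1 (4.96 to 8.49 FPKM), CD14 (6.16 to 17.9), KDR (0.18 to 2.43) and PTPRC (0.60 to 1.06), whereas MS4A1, LUM and DCN were at 0 to 0.02. CD14 and KDR were lower at 2.5 µM than in vehicle, and PTPRC was higher. The part of these markers in the results was not tested. The spacing of low FPKM values put the depth at 17350000 to 19400000 fragments per library, with the lowest value in the 2.5 µM library. The 10 highest genes took 9.28% of all FPKM at 1.25 µM and 10.6% at 2.5 µM, against 6.72% in vehicle, and FTH1 led in every library.

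Doubling the dose moved few genes. Of the 11775 genes, 122 were at least 1.5-fold higher at 2.5 than at 1.25 µM (1.04%) and 204 were at least 1.5-fold lower (1.73%). The first step was larger, with 1198 genes higher (10.2%) and 859 lower (7.3%) at 1.25 µM than in vehicle. At 2.5 µM, 1689 genes were higher than in vehicle (14.3%) and 1580 were lower (13.4%). The median log2 ratio between the doses was -0.012, with an SD over genes of 0.25. Taking both directions together, the dose step passed 1.5-fold for 326 genes (2.77%), and 1.25 µM ATV alone, which is itself a treatment, passed it against vehicle for 251 (2.13%). Most calls were of low genes. When genes were grouped by their higher dose value, 100 of the 122 higher and 145 of the 204 lower genes lay at 1 to 5 FPKM. Only 22 of the higher genes reached 5 FPKM at 2.5 µM, and 59 of the lower genes had 5 FPKM or more at 1.25 µM. At 100 FPKM and above, 1 gene was higher, the ferritin light chain FTL, and 5 were lower, namely PI3, S100A9, MGP, ACTB and ACTG1.

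**Figure D1:**
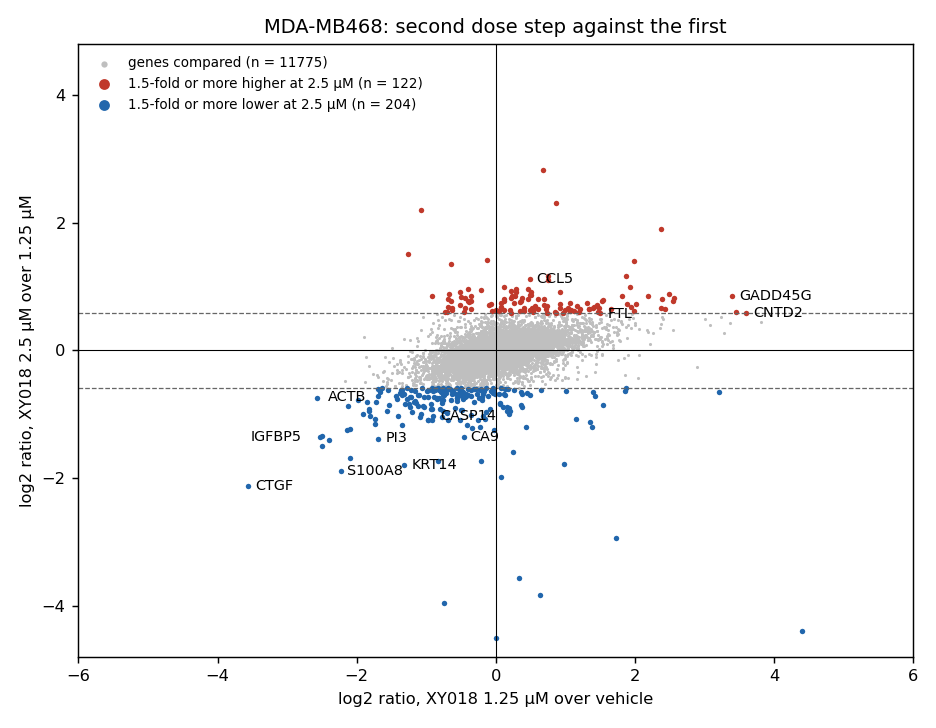
Each point is 1 of 11775 genes, with the log2 ratio of 1.25 µM XY018 over vehicle on the x axis and of 2.5 over 1.25 µM on the y axis. Red points are the 122 genes at least 1.5-fold higher and blue points the 204 at least 1.5-fold lower at 2.5 µM, the dashed lines mark 1.5-fold, and most of the blue points lie left of 0, where the gene was already lower at 1.25 µM.

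The second step mostly extended the first. Of the 204 lower genes, 163 were already below vehicle at 1.25 µM, 105 of them by 1.5-fold, and 180 were 1.5-fold below vehicle at 2.5 µM. Of the 122 higher genes, 92 were already above vehicle at 1.25 µM, 57 of them by 1.5-fold, and 99 were 1.5-fold above vehicle at 2.5 µM. The 1.25 µM library enters both ratios with opposite sign, so an error in it moves the steps apart.

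Genes of the acute phase and S100 list, which are active in squamous and inflamed epithelium, were lower at each dose in part. S100A8, one chain of the neutrophil and epithelial protein calprotectin, was at 81.8 FPKM in vehicle, 17.3 at 1.25 µM and 4.61 at 2.5 µM, with 12.9 in the library given 1.25 µM XY018 and ATV. Its log2 step between the doses was -1.89, with a 95% exact (Clopper-Pearson) counting interval of -2.48 to -1.33. S100A9, the other chain, was at 551, 165 and 78.4 FPKM (step -1.08). S100A7, also known as psoriasin, was at 148, 26.1 and 9.22 FPKM (step -1.49). These 3 genes lie together on chromosome 1 within the cluster of S100 genes, at chr1:153362508-153363549 (S100A8), chr1:153330330-153333499 (S100A9) and chr1:153430220-153433127 (S100A7) in GRCh37. PI3, which encodes the elastase inhibitor elafin and lies on chromosome 20 (chr20:43803543-43805185), was at 444, 138 and 52.4 FPKM (step -1.39). SAA1, an acute phase serum amyloid, was at 74.1, 42.3 and 22.4 FPKM (step -0.92), although SAA1 and SAA2 are near copies whose reads may be shared. In all 5 the 2.5 µM library was the lowest of the 5 MDA-MB468 libraries.

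As a list, the acute phase and S100 genes had the lowest median step of the 33 lists, -0.48 over 13 genes, against -0.012 over all genes. Of these 13, 5 were 1.5-fold lower, against 1.73% of all genes, and none was 1.5-fold higher, against 1.04%. The list was not uniform. LCN2, which encodes the siderophore-binding protein lipocalin 2, was at 520, 884 and 875 FPKM, and S100P was at 25.1, 69.3 and 68.7 FPKM, so both were higher than in vehicle and level between the doses. In HCC70 cells the same 13 genes had a median step of -0.04, from far higher levels for some: S100A8 was at 4349 FPKM at 1.25 µM and 3687 at 2.5 µM.

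The 10 largest falls among genes at 5 FPKM or above at 1.25 µM also held genes outside that list. IGFBP5, an insulin-like growth factor binding protein, was at 207, 35.9 and 13.9 FPKM (step -1.36). The matrix Gla protein MGP, an inhibitor of calcification, was at 612, 163 and 82.0 FPKM (step -0.99). FGFBP1, a carrier that releases fibroblast growth factors from the matrix, was at 39.2, 6.86 and 2.65 FPKM (step -1.34), and it was at 83.3 FPKM with ATV alone. CASP14, the caspase of the cornifying epidermis, was at 151, 81.0 and 39.5 FPKM (step -1.03), and SUSD2, a membrane protein, was at 93.4, 47.7 and 22.3 FPKM (step -1.09). XAGE2, a cancer-testis antigen of a multicopy family, was at 32.4, 9.21 and 4.47 FPKM (step -1.03). For IGFBP5, CASP14 and FGFBP1 the library with 1.25 µM XY018 and ATV was lower still, at 6.93, 27.8 and 2.52 FPKM, so for them the 2.5 µM library was not the lowest.

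**Figure D2:**
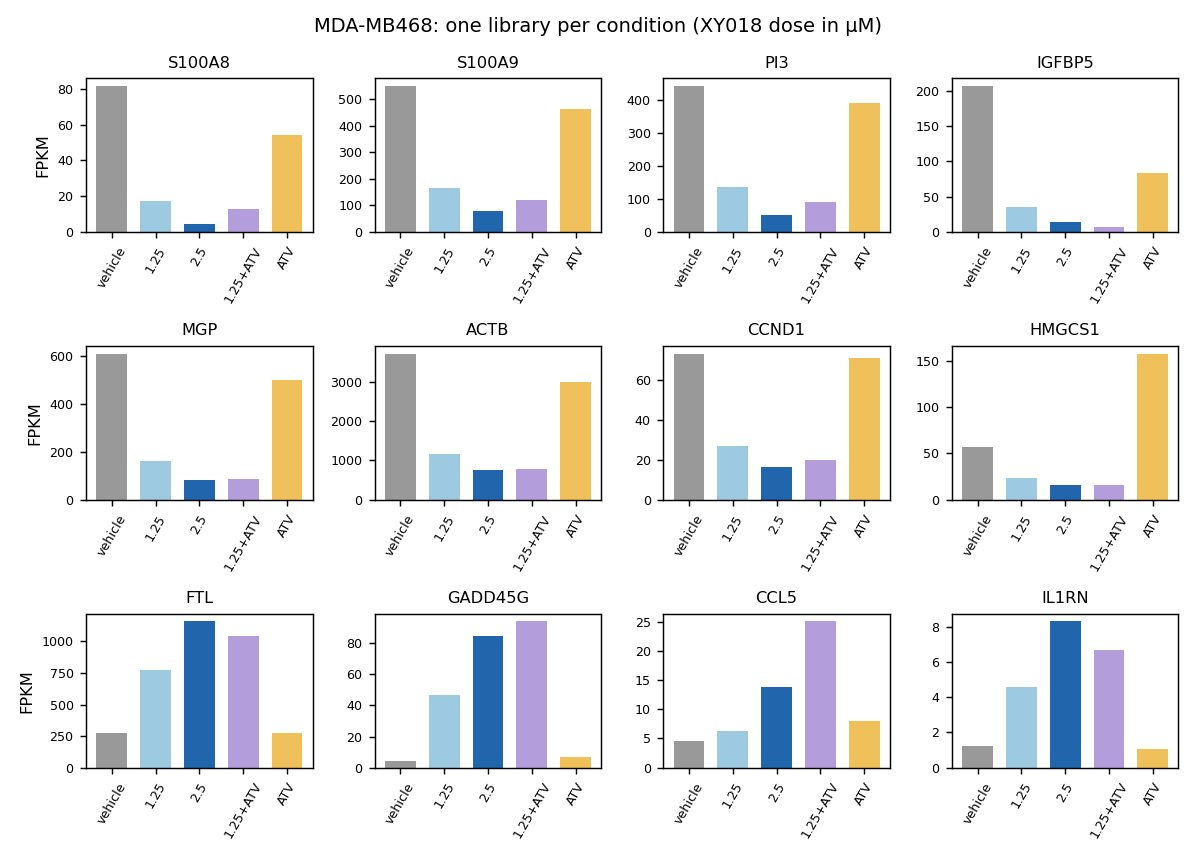
Bars give the FPKM of 12 genes in each of 5 MDA-MB468 libraries, 1 library per bar, with XY018 dose in µM on the x axis and a y axis that starts at 0 and differs between panels. S100A8, S100A9, PI3, MGP, ACTB and CCND1 are lowest at 2.5 µM, IGFBP5 is lowest with 1.25 µM XY018 and ATV, and FTL, GADD45G, CCL5 and IL1RN are higher at 2.5 than at 1.25 µM.

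A few cytoskeletal genes and targets of the coactivators YAP and TAZ were lower again at 2.5 µM. ACTB, the cytoplasmic β-actin often used as a reference transcript, was at 3718 FPKM in vehicle, 1175 at 1.25 µM and 751 at 2.5 µM, and ACTG1, the γ-actin, at 1713, 587 and 383 FPKM. Their steps were -0.65 and -0.62, and the library with 1.25 µM XY018 and ATV, at 781 and 392.35 FPKM, lay next to the 2.5 µM library. Reads of the actins can be split with each other and with processed copies. Over the 15 actin and SRF genes compared, 2 were 1.5-fold lower and none higher, against 1.73% and 1.04% of all genes. Their median step was -0.13, and 3 had a step above 0, up to 0.24 for TAGLN. The median was -0.24 with a filter at 5 FPKM and with no filter. CTGF, a matricellular protein and a standard YAP target, was at 59.4, 4.94 and 1.06 FPKM (step -2.12, counting interval -2.73 to -1.74), with 0.53 in the library given 1.25 µM XY018 and ATV, and CYR61, of the same family, at 51.4, 20.02 and 13.0 FPKM (step -0.62). All 12 YAP and TAZ genes compared had a step below 0, and 2 of them were past 1.5-fold, against 1.73% of all genes. Their median was -0.20, and the median over all genes was itself below 0, at -0.012. THBS1, thrombospondin 1, was at 24.1, 3.96 and 2.32 FPKM, and 0.78 of its log2 change from vehicle was present at 1.25 µM. KRT14, a basal keratin with near-identical copies, was at 4.63, 1.80 and 0.45 FPKM (step -1.79).

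Among growth genes, CCND1, which encodes the G1 cyclin D1, was at 73.3, 27.0 and 16.5 FPKM (step -0.71, counting interval -0.82 to -0.61). EGR1 and DUSP6, immediate targets of the MAPK pathway, were at 12.5, 8.12 and 5.17 FPKM and at 4.07, 2.27 and 1.31 FPKM, with steps of -0.64 and -0.75. EGFR itself had a step of -0.30. MYC was at 67.4, 41.9 and 41.9 FPKM, a step of 0, and the CDK inhibitor gene CDKN1A at 11.4, 23.6 and 24.3 FPKM (step 0.04), so both had reached their 2.5 µM level at the lower dose.

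The mitotic genes as a list had medians of like size at both steps. The mitosis and spindle list had the second lowest median step, -0.35 over 31 genes, beside a median of -0.29 at the first step. The order of these medians rests on the scale of the 1.25 µM library, since lowering it by 3.07% would make them -0.31 and -0.33. All 31 genes had a step below 0, from -0.08 for MAD2L1 to -0.72 for CENPE, and for 27 of 31 the counting interval lay below 0, which held for 21.3% of the 11475 genes with a known transcript length. The interval lay above 0 for 16.9% of those genes and for none of the 31. At 1.25 µM 4 of the 31 were 1.5-fold below vehicle, against 7.3% of all genes, and at 2.5 µM 16 were, against 13.4%. The step itself passed 1.5-fold downward for 2 genes, against 1.73% of all genes. CENPE, a kinetochore motor, was at 4.64, 3.43 and 2.05 FPKM, and KIF20A, a kinesin of cytokinesis, at 44.3, 24.2 and 15.9 FPKM (step -0.60). Below 1.5-fold, the proliferation antigen MKI67 was at 40.5, 23.5 and 17.0 FPKM (step -0.46) and cyclin B1 (CCNB1) at 44.5, 33.2 and 24.8 FPKM (step -0.42). The kinetochore gene NUF2, at 6.70, 6.96 and 5.34 FPKM, and the kinase TTK, at 24.0, 24.7 and 20.4 FPKM, were not below vehicle at all at 1.25 µM. For 15 of the 31 genes the second step was larger than the first.

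The DNA replication list, which holds the MCM helicase, its loaders, polymerases and nucleotide synthesis enzymes, had most of its difference at the first step, with a median of -0.54 there and -0.16 at the second over 33 genes, or -0.59 and -0.12 after the same lowering of the 1.25 µM library. At 1.25 µM 14 of the 33 were 1.5-fold below vehicle, against 7.3% of all genes, and at 2.5 µM 21 were, against 13.4%. The second step exceeded the first in 1 gene. RRM2, the small subunit of ribonucleotide reductase, had the largest step, at 39.99, 11.0 and 6.24 FPKM (step -0.81), and was the only member past 1.5-fold. PCNA, the sliding clamp, was at 223, 111 and 89.4 FPKM, and MCM4 at 46.0, 26.7 and 26.5 FPKM. Against the library with 1.25 µM XY018 and ATV in place of 1.25 µM alone, 29 of 31 mitotic genes were lower at 2.5 µM with a median of -0.25, and 26 of 33 replication genes were lower with a median of -0.11. The median over all genes in that comparison was -0.001, and the 2.5 µM library is the same in both comparisons. In HCC70 cells the median step was -0.08 for the mitotic list and 0.00 for the replication list.

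**Figure D3:**
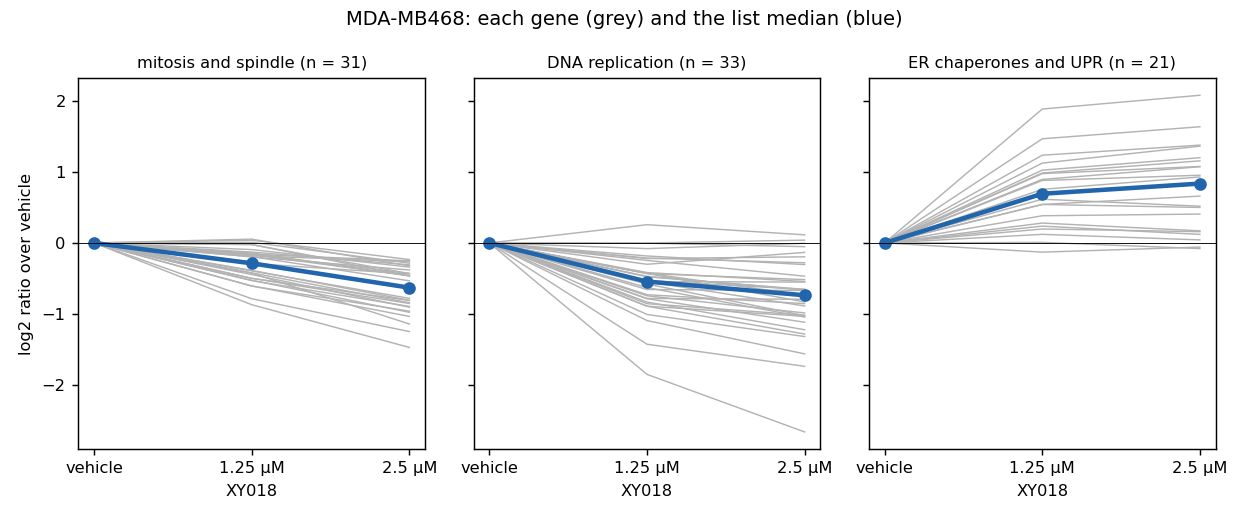
Grey lines join the log2 ratio over vehicle of each gene at 1.25 and 2.5 µM XY018 in MDA-MB468, and blue points and lines give the list median. The mitosis median goes from -0.29 to -0.63, the DNA replication median from -0.54 to -0.74, and the median of the ER chaperone and unfolded protein response (UPR) list from 0.69 to 0.84.

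Since the mitotic genes moved together, their promoters (250 bases before to 50 after each transcription start, from RefSeq, GRCh38.p14) were read for letters known from cell cycle genes. The sequence TTTGAA, the core of the cell cycle homology region (CHR) bound by the DREAM and B-MYB-MuvB complexes, was present on either strand in 18 of the 26 mitotic promoters matched (69.2%), in 9.41% of the 9680 promoters matched to genes compared and in 15.4% of all 27305 promoters. Of the 29 replication promoters, 1 held it (3.45%). The sequence CCAAT, bound by NF-Y, was in 20 of the 26 (76.9%) and 17 of the 29 (58.6%), against 37.3% for the genes compared and 35.7% of all. The promoters of CENPE and KIF20A held no TTTGAA in this window. The lists were drawn up by gene function, so these shares describe the lists and not the dose step. Among the genes called between the doses, TTTGAA was in 22 of 144 promoters of lower genes (15.3%) and 9 of 94 of higher genes (9.57%). A match is a description of the letters and no measure of binding. The 3 mitotic genes with the lowest step among those that hold TTTGAA are printed 5′ to 3′ with TTTGAA in capitals, because they show its place near the start. They are MKI67 at chr10:128126374-128126673, minus strand, CENPF at chr1:214602945-214603244, plus strand, and BUB1B at chr15:40160819-40161118, plus strand.
MKI67: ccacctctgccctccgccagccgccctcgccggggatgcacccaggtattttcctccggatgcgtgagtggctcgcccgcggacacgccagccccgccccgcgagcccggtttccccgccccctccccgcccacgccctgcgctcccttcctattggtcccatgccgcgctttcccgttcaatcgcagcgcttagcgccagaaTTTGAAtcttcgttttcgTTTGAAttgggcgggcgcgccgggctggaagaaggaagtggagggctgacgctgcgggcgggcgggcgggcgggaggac
CENPF: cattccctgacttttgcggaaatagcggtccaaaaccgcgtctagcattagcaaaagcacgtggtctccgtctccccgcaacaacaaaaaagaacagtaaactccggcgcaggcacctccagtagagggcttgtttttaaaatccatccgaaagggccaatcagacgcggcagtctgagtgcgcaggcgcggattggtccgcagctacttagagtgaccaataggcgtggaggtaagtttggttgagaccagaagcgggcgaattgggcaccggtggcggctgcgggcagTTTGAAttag
BUB1B: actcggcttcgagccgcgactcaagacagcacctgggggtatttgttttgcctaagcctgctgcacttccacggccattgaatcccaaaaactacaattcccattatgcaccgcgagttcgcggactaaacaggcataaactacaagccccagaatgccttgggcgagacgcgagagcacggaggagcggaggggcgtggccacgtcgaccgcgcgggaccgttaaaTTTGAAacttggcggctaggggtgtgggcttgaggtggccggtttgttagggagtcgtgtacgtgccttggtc
In MKI67 both copies lie within 47 bases before the start, and in BUB1B the single copy begins 23 bases before it. CENPF, a kinetochore protein, was at 21.3, 14.8 and 10.8 FPKM in vehicle, 1.25 and 2.5 µM, and BUB1B, a spindle checkpoint kinase, at 14.0, 10.7 and 7.98 FPKM.

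For the actin and immediate early genes the sequence searched was the CArG box bound by SRF, found in 6 of 12 promoters of the actin and SRF list (50%), in 1% for the genes compared and in 1.29% of all. The list was drawn up with SRF in mind, so its share does not bear on the dose step. Among the genes called between the doses, 4 of 144 promoters of lower genes (2.78%) and 0 of 94 of higher genes held a CArG box. Of the genes in the actin, YAP and MAPK lists that were 1.5-fold lower at 2.5 µM, EGR1 (chr5:138465229-138465528, plus strand) and ACTG1 (chr17:81512750-81513049, minus strand) held one, in capitals here.
EGR1: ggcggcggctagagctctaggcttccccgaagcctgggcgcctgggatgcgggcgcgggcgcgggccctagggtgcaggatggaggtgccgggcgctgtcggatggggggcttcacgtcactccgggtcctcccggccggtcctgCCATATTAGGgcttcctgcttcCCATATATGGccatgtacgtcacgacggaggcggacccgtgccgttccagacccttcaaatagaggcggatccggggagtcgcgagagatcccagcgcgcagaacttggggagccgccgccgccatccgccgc
ACTG1: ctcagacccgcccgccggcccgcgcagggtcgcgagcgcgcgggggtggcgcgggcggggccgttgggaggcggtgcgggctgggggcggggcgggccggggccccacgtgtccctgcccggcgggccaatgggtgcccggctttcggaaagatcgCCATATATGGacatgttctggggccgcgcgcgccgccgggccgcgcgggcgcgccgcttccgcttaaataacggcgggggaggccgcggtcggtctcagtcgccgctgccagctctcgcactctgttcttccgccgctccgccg
EGR1 held 2 copies, and SRF itself was at 20.7, 15.6 and 15.7 FPKM. Of 8 motifs searched in all, GGAATG, bound by TEAD factors, was in 3 of 9 YAP and TAZ promoters (33.3%), against 10.7% for the genes compared and 14% of all. The sterol element TCACNCCAC was in none of 16 cholesterol promoters, against 1.12% and 1.15%. At shares this low, 16 promoters cannot show a lack, and other forms of the element were not searched. The AP-1 site TGANTCA was in 2 of 9 acute phase and S100 promoters (22.2%), against 4.19% for the genes compared and 7.76% of all. The antioxidant element TGACNNNGC was in 3 of 11 NRF2 and iron promoters (27.3%), against 15.1% and 13.6%, and the ATF site TGACGTCA in 1 of 15 stress response promoters (6.67%), against 3.31% and 1.98%.

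Cholesterol synthesis genes were graded, with most of the change in the first step. HMGCS1, which makes HMG-CoA for the pathway and lies at chr5:43287572-43313614 in GRCh37, was the only one of the 21 past 1.5-fold between the doses, at 57.1, 23.5 and 15.6 FPKM (step -0.59, counting interval -0.69 to -0.50). With ATV alone it was at 158 FPKM, and with 1.25 µM XY018 and ATV at 15.8, level with 2.5 µM XY018 alone. It was an exception in this, since 18 of the 21 genes were higher at 2.5 µM XY018 than in the library with 1.25 µM XY018 and ATV, with a median log2 ratio of 0.26. The median over all genes was -0.001. SQLE, squalene epoxidase, was at 36.7 FPKM at 2.5 µM and 24.3 with XY018 and ATV. At 1.25 µM 11 of the 21 were 1.5-fold below vehicle, against 7.3% of all genes, and at 2.5 µM 17 were, against 13.4%, 13 of them graded and 4 saturated. INSIG1, which holds the SREBP proteins in the endoplasmic reticulum, was at 30.1, 17.5 and 15.4 FPKM (step -0.18). The transcripts of the regulators themselves changed little, with steps of 0.13 for SREBF1 and -0.05 for SREBF2. ELOVL6, a fatty acid elongase, was at 2.98, 1.46 and 0.84 FPKM (step -0.73). ABCA1, the cholesterol efflux pump induced by LXR, was the only LXR gene past 1.5-fold, at 0.24, 0.74 and 1.31 FPKM (step 0.75), and ABCG1 was at 1.14, 4.21 and 5.77 FPKM (step 0.45).

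Genes that were higher at 2.5 µM were fewer and included immune and iron genes. CCL5, a T cell chemokine, had the largest rise at 5 FPKM or above, from 4.50 FPKM in vehicle to 6.35 at 1.25 µM and 13.8 at 2.5 µM (step 1.11, counting interval 0.85 to 1.41). It was highest, at 25.1 FPKM, with 1.25 µM XY018 and ATV. IL1RN, the interleukin 1 receptor antagonist, was at 1.23, 4.57 and 8.32 FPKM (step 0.85), and GADD45G, a stress-induced growth arrest gene, at 4.37, 46.9 and 84.6 FPKM (step 0.85). GSDMB, a pore-forming gasdermin, was at 3.64, 8.28 and 13.4 FPKM (step 0.69), and SERINC2 at 10.2, 15.2 and 24.6 FPKM (step 0.69). FKBP11, a prolyl isomerase of the endoplasmic reticulum, was at 2.13, 3.18 and 5.11 FPKM (step 0.67, on an estimated 42 and 61 fragments at the doses). C11orf53 was lower at 1.25 µM than in vehicle and higher at 2.5 µM, at 6.16, 4.27 and 8.12 FPKM (step 0.91). The remaining 3 of the 10 largest rises, MUC20, NPIPA1 and CBWD2 (steps 0.73, 0.72 and 0.67), belong to families with near-identical copies, and their values are uncertain.

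The NF-kB and chemokine list had the highest median step of the 33 lists, 0.28 over 14 genes, and its median at the first step was 0.14. With no filter on low values its median step was 0.14, below the 0.23 of the NRF2 and iron list. CXCL2 and CXCL3, neutrophil chemokines of close sequence, were 1.5-fold higher, at 2.03, 2.22 and 3.96 FPKM and at 3.41, 2.49 and 4.0 FPKM. They were the 2 of 14 members past 1.5-fold upward, against 1.04% of all genes. No member was 1.5-fold lower, against 1.73% of all genes, a share at which a list of 14 would seldom hold any. The inhibitor genes NFKBIA, at 33.7, 57.8 and 76.7 FPKM, and TNFAIP3, at 4.78, 10.6 and 14.97 FPKM, had steps of 0.41 and 0.50. Of the 14 genes, 13 were higher with 1.25 µM XY018 and ATV than at 2.5 µM XY018. LTB, the membrane lymphotoxin, lay outside the list and went the other way, from 12.4 and 11.7 FPKM in vehicle and at 1.25 µM to 6.15 at 2.5 µM (step -0.91).

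The NRF2 and iron list had a median step of 0.23 over 14 genes, against -0.012 over all genes. Of the 14, 12 were above 0 and 1, the ferritin light chain, was past 1.5-fold, against 1.04% of all genes. FTL was at 272, 772 and 1160 FPKM (step 0.59, counting interval 0.55 to 0.62), and FTH1, the heavy chain, was at 4270, 8631 and 12298 FPKM (step 0.51), with 276 and 4326 FPKM under ATV alone. Both have processed copies in the genome. The counting interval lay above 0 for 10 of the 14, against 16.9% of all genes with a known transcript length.

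Endoplasmic reticulum stress genes had largely reached their level at 1.25 µM. Over the 21 ER chaperone and UPR genes the median was 0.69 at the first step and 0.10 at the second, and none passed 1.5-fold between the doses. The 12 genes that were 1.5-fold above vehicle at 2.5 µM were the same in number as at 1.25 µM and all fell in the saturated class. Over all genes, 14.3% were 1.5-fold above vehicle at 2.5 µM and 10.2% at 1.25 µM. HSPA5, the chaperone BiP, was at 106, 292 and 329 FPKM and HERPUD1 at 68.0, 251 and 288 FPKM. The sensor kinase gene ERN1 had the largest step of the list, 0.24. In the integrated stress response list of 16 genes, 7 were 1.5-fold above vehicle at each dose, against the same 10.2% and 14.3% of all genes at 1.25 and 2.5 µM. DDIT3, a pro-apoptotic factor of that response, was at 17.5, 67.7 and 86.7 FPKM (step 0.36), TRIB3 at 157, 275 and 287 FPKM (step 0.06), and ATF3 at 7.61, 30.4 and 46.6 FPKM (step 0.61), the only member past 1.5-fold. ATF4 (step 0.08), ASNS (-0.21) and CHAC1 (-0.16) differed little between the doses. GDF15, a stress-induced cytokine, was at 25.5, 242 and 346 FPKM (step 0.52).

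**Figure D4:**
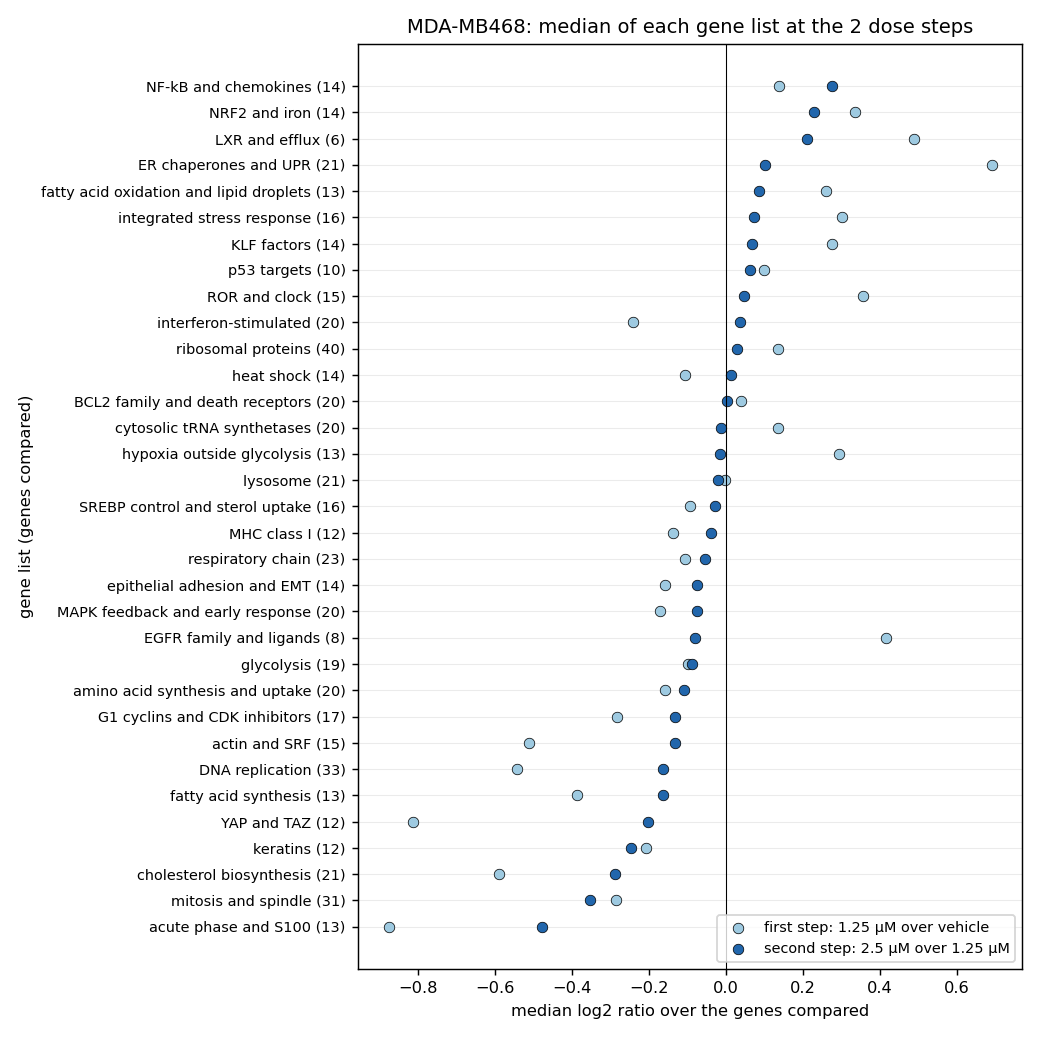
The x axis gives the median log2 ratio over the genes compared in each of 33 lists in MDA-MB468, with pale points for 1.25 µM over vehicle and dark points for 2.5 over 1.25 µM XY018. The dark points run from -0.48 for acute phase and S100 genes to 0.28 for NF-kB and chemokine genes, and the dark point lies further from 0 than the pale one for the mitosis, keratin, NF-kB and lysosome lists.

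Lists of housekeeping function stayed near 0. The median step was 0.03 for 40 ribosomal protein genes, with a range of -0.15 to 0.17, -0.05 for 23 respiratory chain genes, -0.01 for 20 cytosolic tRNA synthetases and -0.02 for 21 lysosome genes, and none of these had a member past 1.5-fold. No member passed 1.5-fold either for p53 targets (median step 0.06), the BCL2 family (0.00), heat shock (0.01), MHC class I (-0.04), interferon-stimulated genes (0.04) or KLF factors (0.07). Nor did one for the ROR and clock list (0.05), amino acid synthesis (-0.11), glycolysis (-0.09), epithelial adhesion (-0.08) or the EGFR family (-0.08). In amino acid synthesis 17 of 20 steps were below 0. The counting interval lay below 0 for 13 and above 0 for 3, against 21.3% and 16.9% of all genes. In glycolysis 14 of 19 steps were below 0, with intervals below 0 for 9 and above 0 for 2, and LDHA had a step of -0.53. For lists with 1 or 2 members past 1.5-fold not given above, the median was -0.03 for SREBP control and sterol uptake, 0.21 for LXR and efflux (0.075 with no filter on low values), -0.16 for fatty acid synthesis, 0.09 for fatty acid oxidation, -0.13 for G1 cyclins and CDK inhibitors, -0.08 for MAPK feedback, -0.25 for keratins and -0.01 for hypoxia outside glycolysis. In the hypoxia list, the carbonic anhydrase CA9 was at 5.58, 4.02 and 1.51 FPKM (step -1.36) and ANKRD37 at 0.67, 0.71 and 1.25 FPKM (step 0.74), the latter on an estimated 11 and 17 fragments, with an interval of -0.40 to 2.02 that includes 0. PDK4, which inhibits pyruvate dehydrogenase, was at 0.07, 0.90 and 1.66 FPKM (step 0.82).

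Each gene changed 1.5-fold or more at 2.5 µM was then sorted by the share of its log2 change from vehicle that was present at 1.25 µM. Shares below 0.25 were called late, from 0.25 to below 0.75 graded, from 0.75 to 1.25 saturated and above 1.25 overshot. Of the 1689 genes above vehicle, 996 were saturated (59.0%) and 642 graded (38.0%), and of the 1580 below vehicle, 527 were saturated (33.4%) and 997 graded (63.1%). The median share was 0.789 for genes that went up and 0.689 for genes that went down. These shares rest on the relative scale of the libraries. Lowering the 1.25 µM library by 3.07% would bring the medians together. A share below 0.5, that is, a larger second than first step, was found in 14.7% of the genes that went down and 6.34% of those that went up, and in 7 of the 16 mitotic genes past 1.5-fold at 2.5 µM.

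**Figure D5:**
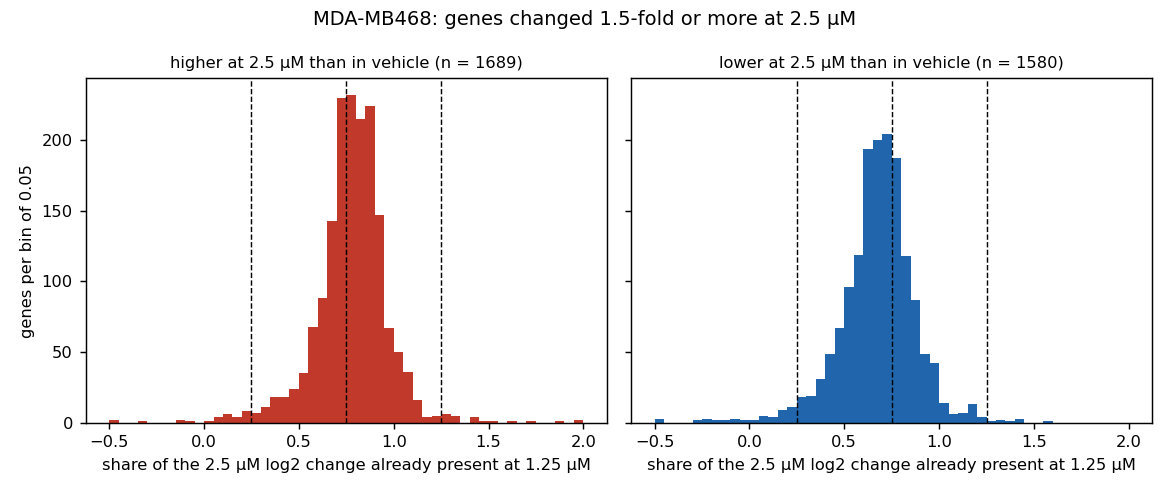
Histograms give the number of genes per bin of 0.05 against the share of the log2 change at 2.5 µM that was present at 1.25 µM, for 1689 genes above vehicle (left, red) and 1580 below (right, blue). Dashed lines mark shares of 0.25, 0.75 and 1.25, values outside -0.5 to 2 are drawn in the end bins, and the red distribution lies further right, with medians of 0.789 and 0.689.

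Saturated rises were led by KLHDC7B, at 1.23, 18.5 and 25.3 FPKM, GADD45G, and the cyclin-like CNTD2, at 0.55, 7.78 and 11.8 FPKM, whose shares were 0.89, 0.80 and 0.86. Saturated falls included THBS1 and NT5E, the ectonucleotidase CD73, at 56.1, 15.2 and 10.7 FPKM. A saturated gene can still pass 1.5-fold between the doses, as GADD45G (step 0.85), CNTD2 (0.59) and THBS1 (-0.75) did. Graded rises included IL1RN, PPP1R32, at 3.18, 10.2 and 16.0 FPKM, and FTL, and CTGF, S100A8 and S100A7 were the largest graded falls. Late responses numbered 29 up and 48 down, and only 2 and 9 of these reached 5 FPKM in any of the 3 libraries. The 2 late rises were NPIPA1 and the zinc finger gene ZNF350, at 4.47, 4.63 and 6.90 FPKM. LTB, CENPV, at 10.2, 8.66 and 5.10 FPKM, and ACOT4, an acyl-CoA thioesterase, at 5.13, 4.52 and 2.79 FPKM, led the late falls. Overshot responses numbered 22 up and 8 down. None of the 22 reached 5 FPKM, and the 3 that did among the 8 were IRF9, at 23.4, 12.9 and 14.9 FPKM, TUBB2A, at 10.2, 4.78 and 5.97 FPKM, and TELO2, at 9.23, 5.08 and 6.05 FPKM. For TUBB2A the counting interval of the step, -0.01 to 0.65, included 0.

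A turn of direction was rare. Of the 131 genes past 1.5-fold at 1.25 µM but not at 2.5 µM, 79 were higher and 52 lower than vehicle at the lower dose. Only 27 genes moved 1.5-fold one way and then 1.5-fold back, 15 up then down and 12 down then up, and 2 of the 27 reached 5 FPKM in any of the 3 libraries. Of the 27, 7 were gene models that join a pair of named neighbours, for which reads can be assigned to either model. One such pair was ATP5J2-PTCD1, at 1.05, 2.17 and 0.56 FPKM, and PTCD1, at 5.18, 2.71 and 4.98 FPKM, which mirrored each other. The 2 at 5 FPKM or above were PTCD1 and CBWD2, at 14.2, 8.74 and 14.0 FPKM.

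For most of the genes called the counting interval left out 0. Of the 110 higher genes with a known transcript length, the interval lay above 0 for 99, and of 187 lower genes it lay below 0 for 172. The genes were picked for a large step in the same libraries, so this follows in large part from the selection. These intervals cover counting error only. Just past the 1.5-fold line were FTL and CNTD2, both at 0.59, and just short of it were AGPAT5, at 12.3 and 18.4 FPKM (0.58), and IGFBP2, at 29.2 and 19.8 FPKM (-0.56). When the library given 1.25 µM XY018 and ATV took the place of the 1.25 µM library, 98 of the 122 higher and 161 of the 204 lower genes kept their direction, and 31 and 66 were past 1.5-fold the same way. The 2.5 µM library that the genes were picked from enters both ratios, so this agreement follows in part from the selection. Over all genes, that comparison called 125 higher and 225 lower. The library with ATV differs in treatment and is not a replicate.

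In HCC70, where the same doses were given, 10765 of the genes reached 1 FPKM at either dose, and 88 were 1.5-fold higher (0.817%) and 102 lower (0.948%) at 2.5 µM. Of the genes lower in MDA-MB468, 132 could be compared, 83 of them with a step below 0 in HCC70. Of these 132, 7 were past 1.5-fold the same way and 6 the other way. Of the higher genes, 67 could be compared, 35 of them above 0, with 7 past 1.5-fold the same way and 7 the other way. Over the 10765 genes, the steps in the 2 lines had a Pearson r of 0.076 and a Spearman rho of 0.116. Over 7486 genes at 5 FPKM or above in both lines, the values were 0.162 and 0.169. These are values across genes of 4 libraries with no replicate. Sterol genes were lower at the higher dose in HCC70 as well, with steps of -0.57 for HMGCS1 (5.79 and 3.88 FPKM) and -0.71 for SQLE (18.0 and 11.0 FPKM). ABCA1 was higher in both, at 24.3 and 38.3 FPKM in HCC70 (step 0.66). ACTB, at 2977 and 2896 FPKM, CCND1, at 33.3 and 35.4, and PI3, at 4019 and 3903, differed little between the doses in HCC70. Whether the step differs between the lines was not tested.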

How the data were processed

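RNA-seq of MDA-MB468 cells treated for 24 h was used from 5 libraries, 1 per condition, with 2 libraries of HCC70 cells for context. The authors prepared TruSeq libraries from total RNA, sequenced them on a HiSeq instrument, mapped the reads to GRCh37/hg19 with BWA and Bowtie, and deposited FPKM values from Cufflinks per gene. Tool versions were not given in the sources used here. The MDA-MB468 and HCC70 values come from separate tables and were compared within each table only. In the HCC70 table, 3 columns were not used. Genes were followed by Entrez ID, since 28 symbols in the MDA-MB468 table had been turned into dates.

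The log2 ratio of 2.5 over 1.25 µM XY018 was computed after adding 0.1 FPKM, where a gene reached 1 FPKM at either dose, with Python 3 tools (numpy, pandas, scipy). A 1.5-fold threshold, as in the study, replaced a test, because a single library per condition gives no estimate of error. Depth was estimated from the spacing of low FPKM values of genes with 1 transcript, and estimated fragments per gene used the MANE Select transcript length of GENCODE, joined through Entrez IDs for 17515 of 18217 genes. The 95% intervals are exact (Clopper-Pearson) intervals of the share of fragments from 2.5 µM, cover counting error only, and assume that transcript length. The procedures were checked on simulated data.

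Named genes were the 10 largest rises and falls at 5 FPKM or above, the 3 largest of each response class and direction, the largest and every called member of each list, and a fixed set of regulators, of which a few are not reported here. The list members MAD2L1, NUF2, TTK, CENPF, BUB1B, PCNA, MCM4, SRF, LCN2, S100P, HSPA5, HERPUD1, FTH1, NFKBIA and TNFAIP3, and the genes PTCD1, ATP5J2-PTCD1, AGPAT5 and IGFBP2, were chosen after their values were seen, as were the motifs. The members and lists were chosen with earlier results of these data known. Alternatives were other pseudocounts, filters, thresholds, share limits, a rescaling and another library at 1.25 µM.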

Additional observations from a re-analysis of the deposited data

Results flagged for a closer look

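Of the genes named above that were past 1.5-fold between the doses in MDA-MB468, 6 were past 1.5-fold the opposite way in HCC70 and reached 1 FPKM there at either dose. The difference between the lines was not tested, each value rests on 1 library per dose, and no cause was tested. ANKRD37, a hypoxia-induced gene, had a step of 0.74 in MDA-MB468 and -1.13 in HCC70, where it was at 1.56 and 0.66 FPKM. CA9, another hypoxia gene, had a step of -1.36 in MDA-MB468 and 0.74 in HCC70, at 4.27 and 7.19 FPKM. CENPV had a step of -0.75 in MDA-MB468 and 1.30 in HCC70, at 0.48 and 1.33 FPKM. EGR1 had a step of -0.64 in MDA-MB468 and 0.63 in HCC70, at 5.51 and 8.61 FPKM. PTCD1 had a step of 0.85 in MDA-MB468 and -1.08 in HCC70, at 4.38 and 2.02 FPKM, and the overlapping model ATP5J2-PTCD1 had -1.78 and 0.69, at 7.69 and 12.45 FPKM in HCC70. GADD45G (0.85 in MDA-MB468) was at 0.31 and 0.00 FPKM in HCC70 and was left out as too low there.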

How the results depend on the processing

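The counts of genes called depended on low values and on the threshold. The 122 higher and 204 lower genes became 33 and 90 with a pseudocount of 1 FPKM, 703 and 693 with no filter, 22 and 59 with a filter at 5 FPKM, 13 and 49 at 2-fold, and 829 and 1234 at 1.2-fold. The late class held 37 genes with a pseudocount of 1, 487 with no filter, 9 with the filter at 5 FPKM, 25 at 2-fold, 326 at 1.2-fold and 118 with share limits of 1/3, 2/3 and 4/3. The graded class held 1050 genes with the filter at 5 FPKM, 573 at 2-fold, 3384 at 1.2-fold and 945 with the other share limits. The saturated class held 576 at 2-fold and 3159 at 1.2-fold. The overshot class held 7 with a pseudocount of 1, 146 with no filter, 3 with the filter at 5 FPKM, 6 at 2-fold, 218 at 1.2-fold and 17 with the other limits. Fewer or more genes are tested under the filters. The other thresholds and share limits move the cut itself, and a larger pseudocount shrinks the ratios of low genes. Counts were within 1.5 times under a pseudocount of 0.01, a rescaling to a median of 0, and, for the classes, a filter on any of 3 libraries that was chosen after seeing the data. The saturated share of genes that went up stayed above that of genes that went down under each of these settings, at 55.2% and 36.9% after rescaling and at 48.1% and 35.3% with no filter.

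With the library given 1.25 µM XY018 and ATV as the lower dose, which differs in treatment, 16 of the called genes named here changed sign. The log2 ratio became -0.42 for ATF3, -0.24 for C11orf53, 0.51 for CASP14, -0.86 for CCL5, 0.88 for CTGF, -1.12 for CXCL2, -0.92 for CXCL3, 0.34 for CYR61, 0.064 for EGR1, 0.21 for ELOVL6, 0.070 for FGFBP1, -0.15 for GADD45G, 0.99 for IGFBP5, -0.30 for PDK4, -0.016 for SERINC2 and 0.14 for THBS1. With a pseudocount of 1 FPKM, the steps of 4 named genes left their counting intervals. They became 0.41 for ABCA1, -0.42 for ELOVL6, -0.95 for KRT14 and -1.53 for CTGF. ABCA1 and ELOVL6, among other low genes, were then short of 1.5-fold. Of 165 list medians under other pseudocounts, filters and rescaling, 161 moved by less than 0.1. The others were NF-kB and chemokines (0.28 to 0.14) and LXR and efflux (0.21 to 0.075) with no filter, and actin and SRF (-0.13 to -0.24) with no filter and with the filter at 5 FPKM. No replicate could be left out, since each condition has 1 library. No paired analysis was possible because the result comes from no test. Depth limits low genes most.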
